A study of Mus musculus with 40 samples.

Results

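Of the 26411 genes counted in each library, 8 genes for proteins of myeloid granules and lysosomes are described here. They were taken by gene symbol from the E14.5 LSK counts. The 4 primary granule genes are Mpo, Elane, Prtn3 and Ctsg. The 4 grouped here as genes of later neutrophils and monocytes are Lyz2, Chi3l1, Cd177 and Napsa. Of these, Napsa varied apart from the others within genotypes, as given below. The 8 genes were chosen by their counts in these LSK libraries and by the differences between genotypes seen in them. Their levels in LSK cells and the differences between genotypes are therefore descriptions without a test. LSK cells are lineage-negative, SCA-1-positive and c-KIT-positive cells, a population of fetal liver enriched for blood stem cells and early progenitors.

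Neutrophils form their granules in sequence. Primary (azurophil) granules are filled at the promyelocyte stage with myeloperoxidase and serine proteases, and specific and gelatinase granules follow in later stages. Transcripts of the primary granule genes are already abundant in granulocyte-macrophage progenitors, whereas transcripts such as lysozyme increase as neutrophils, monocytes and macrophages mature.

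The study asked what the acetyltransferase activity of KAT6A and KAT6B contributes to gene expression. The LSK cells were sorted from the livers of single fetuses, 4 per genotype, which gave 16 libraries of 4 genotypes. WT fetuses carried normal alleles of both genes. Kat6a E/E fetuses were homozygous for the G656E allele of Kat6a with WT Kat6b. Kat6b E/E fetuses were homozygous for the G577E allele of Kat6b with WT Kat6a. Double mutant fetuses, Kat6a E/E with Kat6b E/E, were homozygous for both. Each allele exchanges 1 amino acid in the acetyltransferase domain and was kept on a C57BL/6J background. It was inherited through the germline, so every cell of the fetus carried it. The 24 whole E9.5 embryos of the series had the same 4 genotypes, and in addition Kat6a cfd/cfd and Kat6b dec/dec, which are loss-of-function alleles with exons removed. Each of these 6 genotypes had 4 embryos.

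The 8 genes lie on 5 chromosomes (GENCODE vM39, GRCm39). Prtn3 (chr10:79710310-79719008) and Elane (chr10:79722081-79724051) are neighbours on the plus strand with 3072 bases between them. Mpo lies at chr11:87684407-87695239 on the plus strand and Ctsg at chr14:56337338-56340031 on the minus strand. Lyz2 lies at chr10:117111557-117118346 on the minus strand, 5351 bases from its paralog Lyz1. Chi3l1 lies at chr1:134109889-134117919 on the plus strand, Cd177 at chr7:24443408-24459747 on the minus strand and Napsa at chr7:44221804-44236295 on the plus strand. All 8 are protein-coding, and the counts were taken over their exons. Of the stretches of 75 bases in Lyz2 transcripts, 2.09% also occur in Lyz1. For Cd177, 3.78% occur in Gm1096, Lypd10 or Lypd11, and for the other 6 genes no such stretch occurs in another gene. Lyz1 itself had at most 2.83 CPM (counts scaled to a common library size) in any LSK library, against at least 103 CPM for Lyz2.

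The promoters of the primary granule genes are shown because the transcripts of these 4 genes varied together between libraries of the same genotype. The lines give the 250 bases before the start of transcription, 5′ to 3′ on the strand of the gene, from RefSeq (GRCm38.p6). The capitals mark GAGGAAG, a sequence bound by the myeloid transcription factor PU.1, which was searched on both strands.
Mpo (chr11:87793534-87793783, plus strand): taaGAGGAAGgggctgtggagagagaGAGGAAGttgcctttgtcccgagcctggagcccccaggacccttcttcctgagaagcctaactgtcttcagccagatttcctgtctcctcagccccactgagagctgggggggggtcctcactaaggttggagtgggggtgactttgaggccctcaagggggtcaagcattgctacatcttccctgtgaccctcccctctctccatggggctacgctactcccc
Elane (chr10:79886062-79886311, plus strand): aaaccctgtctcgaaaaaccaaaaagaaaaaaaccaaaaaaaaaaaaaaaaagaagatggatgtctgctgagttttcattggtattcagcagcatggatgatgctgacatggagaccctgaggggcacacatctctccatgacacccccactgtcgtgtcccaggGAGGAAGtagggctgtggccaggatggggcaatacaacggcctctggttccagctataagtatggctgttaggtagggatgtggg
Prtn3 (chr10:79879417-79879666, plus strand): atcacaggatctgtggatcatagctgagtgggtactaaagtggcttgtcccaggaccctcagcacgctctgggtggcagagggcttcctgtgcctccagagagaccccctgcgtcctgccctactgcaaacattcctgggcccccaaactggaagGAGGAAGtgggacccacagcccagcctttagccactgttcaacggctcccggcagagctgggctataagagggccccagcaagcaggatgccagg
Ctsg (chr14:56102575-56102824, minus strand): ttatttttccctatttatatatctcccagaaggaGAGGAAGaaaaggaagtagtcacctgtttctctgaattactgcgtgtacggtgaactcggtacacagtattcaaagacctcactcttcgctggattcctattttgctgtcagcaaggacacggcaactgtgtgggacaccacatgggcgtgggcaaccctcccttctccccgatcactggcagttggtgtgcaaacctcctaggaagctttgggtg

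GAGGAAG was found in the 250 bases of each of the 4 primary granule genes, at 2 places in Mpo, and in none of the 3 later genes that had a promoter in the table. It occurs in 10.6% of all 32851 promoters of the table. In Elane and Prtn3 the match began 85 and 95 bases before the start of transcription. Both of these promoters also hold AACGG, a MYB sequence, beginning 50 and 55 bases before the start. AACGG was found in no other promoter of the 7, and it occurs in 4772 of all promoters.

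For the later genes, the last 120 bases before the start are shown with TTNNGNAA, a C/EBP sequence, in capitals. C/EBP factors drive the granulocyte programme, and the motif was searched on both strands.
Lyz2 (chr10:117282273-117282392, minus strand): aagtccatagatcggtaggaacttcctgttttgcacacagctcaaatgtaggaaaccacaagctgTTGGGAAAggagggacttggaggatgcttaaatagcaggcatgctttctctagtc
Chi3l1 (chr1:134182036-134182155, plus strand): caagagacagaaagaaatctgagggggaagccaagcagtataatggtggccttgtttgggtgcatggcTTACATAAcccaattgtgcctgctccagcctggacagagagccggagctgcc
Cd177 (chr7:24760312-24760431, minus strand): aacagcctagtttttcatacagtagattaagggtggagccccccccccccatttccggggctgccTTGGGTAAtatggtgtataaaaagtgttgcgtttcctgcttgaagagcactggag

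TTNNGNAA was found in each of these 3 promoters, beginning 55, 52 and 55 bases before the start, and in none of the 4 primary granule promoters over 250 bases. In Chi3l1 it lies on the opposite strand. It is a frequent sequence and occurs in 36.8% of all promoters. The RUNX sequence TGTGGT was found in Ctsg and Lyz2 only, and it occurs in 14.0% of all promoters. None of the 4 motifs overlaps another in these windows. These matches describe exact strings, and no binding was measured here. Other forms of the same sites were not searched, so a promoter without a match may still hold such a site. The matches therefore do not divide the primary from the later genes by their regulators. Napsa has no entry in the promoter table.

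The LSK libraries held 12270376 to 59216547 counted read pairs. Kat6a transcripts were at 128 to 198 CPM and Kat6b transcripts at 22.3 to 40.8 CPM across the 16 libraries. The genotypes overlapped for both genes, and since the alleles change single codons, the counts do not check the labels. Of the genes that define the sort, Kit was at 351 to 552 CPM, whereas Ly6a, which encodes SCA-1, was at 0.937 to 10.3 CPM. The name LSK is that of the sort, and the share of cells with SCA-1 in these libraries was not tested. In all, 4 libraries stood apart with 12600 to 13683 genes detected, against 16082 to 17647 in the other 12. They were Kat6a E/E replicate 2 and double mutant replicates 2, 3 and 4. These 3 double mutants were the only fetuses of litter 1045, so that litter and genotype cannot be told apart in them, and double mutant replicate 1 (litter 970) was the only other double mutant. The summed level of 6 erythroid markers was 3703 to 8398 CPM in the 4 libraries and 333 to 3168 CPM in the other 12.

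The primary granule transcripts were abundant in the LSK libraries of every genotype. On the scale of CPM per kilobase of exon, which allows levels of different genes to be compared, Mpo reached 1555 ± 307 (SD, n = 4) in WT and had rank 13 among the 13071 genes tested. Mpo encodes myeloperoxidase, the haem enzyme that makes hypochlorous acid. Prtn3, which encodes proteinase 3, followed at 662 ± 167 CPM per kilobase. Elane (neutrophil elastase) was at 244 ± 137 and Ctsg (cathepsin G) at 241 ± 74.6 CPM per kilobase, a difference far below their spread. The later genes were less abundant per length in WT. Lyz2, which encodes lysozyme M, was at 121 ± 9.67 and Napsa, which encodes the aspartic protease napsin A, at 34.1 ± 3.64 CPM per kilobase. Cd177, a surface glycoprotein of neutrophils, was at 0.422 ± 0.266 and Chi3l1, a chitinase-like secreted protein, at 0.370 ± 0.128 CPM per kilobase, again within their spread. The low genes rest on few reads, 4 to 244 read pairs per library for Cd177 and 9 to 306 for Chi3l1.

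For the primary granule genes other than Mpo, the levels of the 4 genotypes overlapped. All levels in the following are CPM scaled by TMM, a correction for library composition. Mpo in replicates 1 to 4 was at 3732, 3500, 3487 and 5120 CPM in WT, at 3158, 4198, 4182 and 3007 CPM in Kat6b E/E, at 4631, 3740, 3937 and 4105 CPM in Kat6a E/E, and at 3428, 2823, 3449 and 2483 CPM in the double mutants. The 4 double mutants were below all 4 WT and all 4 Kat6a E/E libraries for Mpo, and they overlapped Kat6b E/E. Elane was at 178, 157, 150 and 412 CPM in WT, at 164, 310, 367 and 204 CPM in Kat6b E/E, at 273, 351, 284 and 252 CPM in Kat6a E/E, and at 220, 229, 344 and 178 CPM in the double mutants. WT replicate 4 held the highest value of all 16 libraries for Elane, while the other 3 WT libraries were among the 4 lowest.

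Prtn3 was at 599, 529, 566 and 885 CPM in WT, at 450, 705, 786 and 483 CPM in Kat6b E/E, at 833, 685, 640 and 714 CPM in Kat6a E/E, and at 574, 668, 655 and 459 CPM in the double mutants. Ctsg was at 221, 195, 196 and 351 CPM in WT, at 170, 313, 339 and 179 CPM in Kat6b E/E, at 291, 275, 232 and 245 CPM in Kat6a E/E, and at 203, 168, 234 and 174 CPM in the double mutants. In WT and in Kat6b E/E these 4 genes split the libraries in the same way. WT replicate 4 and Kat6b E/E replicates 2 and 3 were higher than the other libraries of their genotype for each of the 4 genes. Those 3 libraries also had the lowest summed levels of the 10 LSK and stem cell markers in their genotypes, 1020 to 1124 CPM against 1526 to 1953 CPM in the other 5, and their part in the levels was not tested. The coefficient of variation within a genotype reached 56.2% for Elane in WT and was lowest in Kat6a E/E for all 4 genes, at 9.32% to 14.6%.

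**Figure D1:**
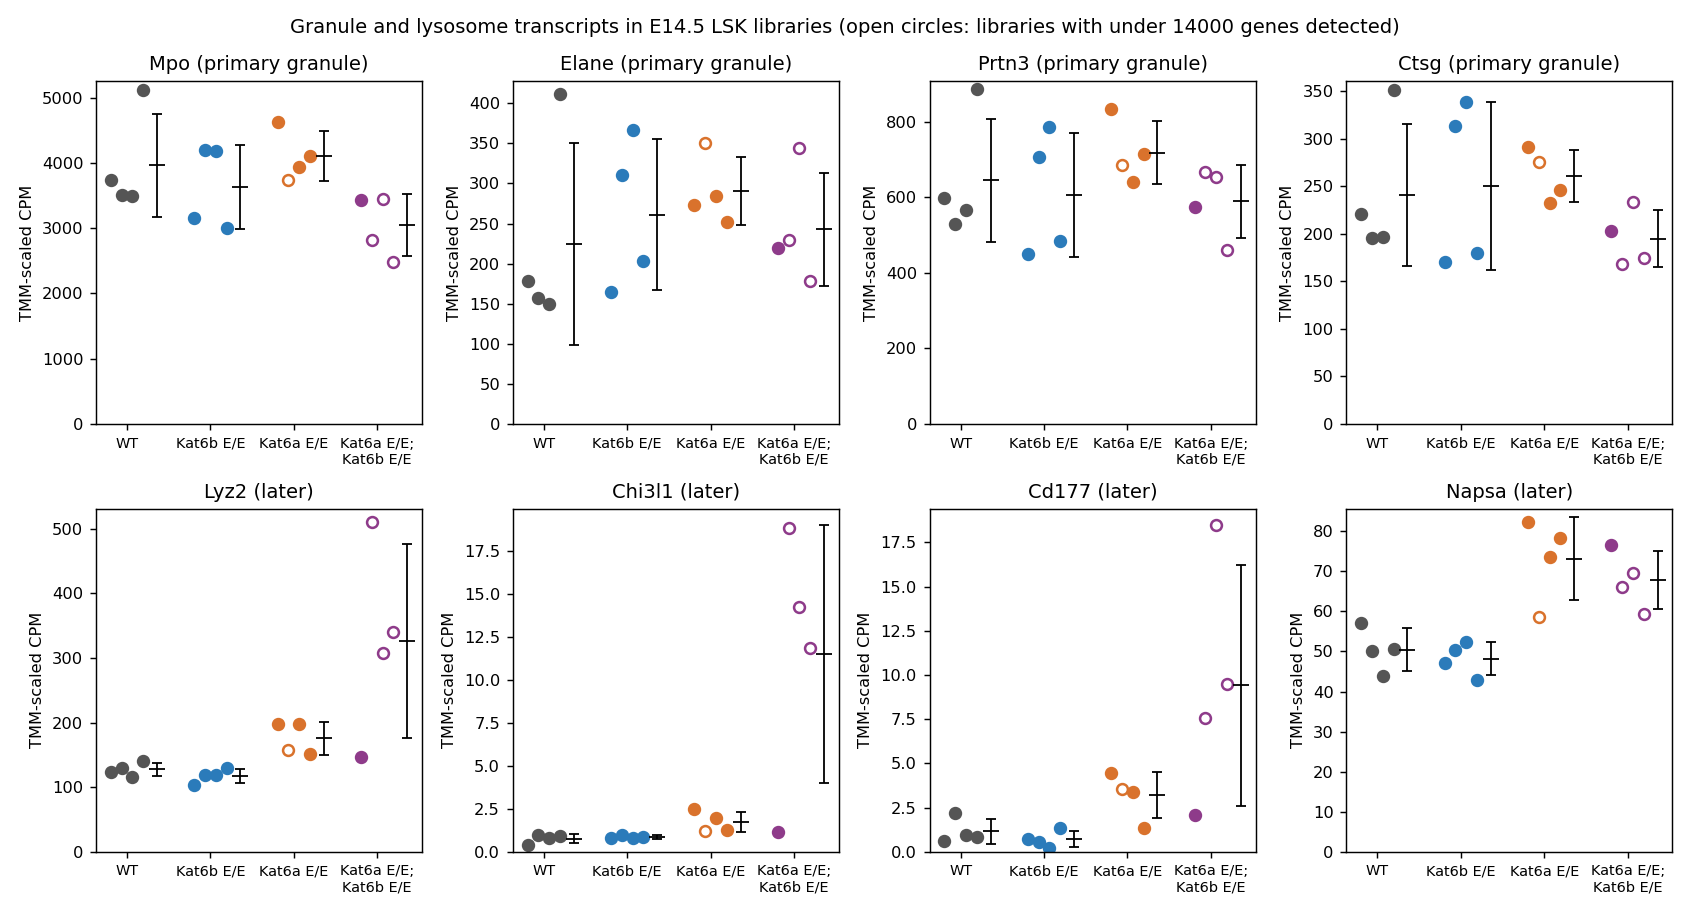
Level of each of the 8 genes in the 16 E14.5 LSK libraries (y axis, TMM-scaled CPM, linear from 0; x axis, genotype). Each circle is 1 fetus in order of replicate number, open circles are the 4 libraries with under 14000 genes detected, and the bar beside each genotype is the mean with its SD (n = 4). Elane, Prtn3 and Ctsg in the upper row overlap between all genotypes and Mpo in the double mutants lies below WT and Kat6a E/E, whereas Lyz2, Chi3l1 and Napsa in the lower row are higher in all 8 Kat6a E/E and double mutant libraries than in the other 8.

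The differences between genotype means were small for the primary granule genes. The highest and the lowest of the 4 genotype means differed by 1.22-fold for Prtn3, 1.29-fold for Elane, 1.34-fold for Ctsg and 1.35-fold for Mpo. Kat6a E/E had the highest mean for each of them. The mean in Kat6a E/E over that in WT was 1.04 for Mpo, 1.29 for Elane, 1.11 for Prtn3 and 1.08 for Ctsg. The mean in the double mutants over that in WT was 0.769 for Mpo, 1.08 for Elane, 0.913 for Prtn3 and 0.808 for Ctsg. Of these genes, 1 (Mpo) had double mutants that did not overlap with WT on the lower side, and 3.0% of all tested genes did so. Mpo was likewise lower in the double mutants than in Kat6a E/E without overlap, as were 2.46% of all tested genes. This count of 1 was 3 without Kat6a E/E replicate 3, against 3.3% of all tested genes, and 3 without double mutant replicate 3, against 3.63%.

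The levels of Lyz2, Napsa and Chi3l1, 3 of the 4 later genes, separated by the Kat6a allele, and those of Cd177 overlapped. Lyz2 was at 124, 130, 116 and 140 CPM in WT and at 103, 118, 119 and 130 CPM in Kat6b E/E. It was at 197, 157, 198 and 151 CPM in Kat6a E/E and at 146, 511, 308 and 340 CPM in the double mutants. The 8 libraries homozygous for the G656E allele were all above the other 8, and the 3 double mutants of litter 1045 were above all others. Napsa was at 57.1, 50.1, 43.9 and 50.6 CPM in WT, at 47.1, 50.3, 52.3 and 42.9 CPM in Kat6b E/E, at 82.2, 58.5, 73.6 and 78.5 CPM in Kat6a E/E, and at 76.5, 66.1, 69.5 and 59.3 CPM in the double mutants. For Napsa, too, the 8 libraries with the G656E allele were above the other 8, but here the 4 libraries with few detected genes were the lowest of those 8.

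Chi3l1 was at 0.377, 0.947, 0.808 and 0.925 CPM in WT and at 0.771, 0.995, 0.798 and 0.839 CPM in Kat6b E/E. It was at 2.49, 1.19, 1.94 and 1.29 CPM in Kat6a E/E and at 1.13, 18.8, 14.2 and 11.9 CPM in the double mutants. The lowest library with the G656E allele, double mutant replicate 1, was just above the highest of the other 8, and the litter 1045 libraries were several times higher than any other. Cd177 was at 0.587, 2.21, 0.962 and 0.838 CPM in WT, at 0.730, 0.547, 0.228 and 1.36 CPM in Kat6b E/E, at 4.47, 3.58, 3.37 and 1.36 CPM in Kat6a E/E, and at 2.10, 7.56, 18.5 and 9.47 CPM in the double mutants. For Cd177, 6 of the 8 libraries with the G656E allele exceeded the highest of the other 8. Of the 13071 genes tested, 17 (0.13%) were higher in all 8 libraries with the G656E allele than in all other 8, and Lyz2, Chi3l1 and Napsa are 3 of these 17.

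In the comparison of Kat6a E/E with WT, the mean of Lyz2 was 1.38 times, of Napsa 1.45 times, of Chi3l1 2.26 times and of Cd177 2.78 times that in WT. Without Kat6a E/E replicate 2, which had few detected genes, these ratios were 1.43, 1.55, 2.49 and 2.67. In Kat6a E/E, 3 of the 4 later genes and none of the primary granule genes were higher without overlap, against 1.89% of all tested genes. For the primary granule genes this rested on WT replicate 4. Without it all 4 were higher in Kat6a E/E without overlap, against 4.01% of all tested genes, and the count of the later genes was again 3. The linear model of all 16 libraries, with surrogate variables and litter, gave log2 fold changes of 0.54 (SE 0.079) for Lyz2, 0.61 (SE 0.088) for Napsa, 1.46 (SE 0.28) for Chi3l1 and 1.87 (SE 0.43) for Cd177. The values for the primary granule genes were 0.093 (SE 0.16) for Mpo, 0.36 (SE 0.31) for Elane, 0.19 (SE 0.20) for Prtn3 and 0.12 (SE 0.25) for Ctsg. The model called 4 of the 8 genes, the 4 later ones, at a false discovery rate (FDR) of 5%, and it called 1.36% of all tested genes. Without Kat6a E/E replicate 1 the count was 0, and 0.00756% of all tested genes were called. It was 2 without Kat6a E/E replicate 3, WT replicate 2 or WT replicate 4, where 1.03%, 0.189% and 0.666% of all tested genes were called. It was 3 without WT replicate 1 or WT replicate 3, with 1.02% and 0.787%, and 4 without Kat6a E/E replicate 2 or replicate 4, with 1.49% and 0.325%. Without the 4 libraries with few detected genes it was 2, against 2.2% of all tested genes. Since the sort yields a mixture of cells, more cells of a type and more RNA per cell cannot be told apart in these values.

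One litter allowed this comparison among siblings. Litter 753 held 3 WT fetuses and Kat6a E/E replicate 1. That fetus was above the 3 WT siblings for each of the 8 genes. It had 1.60 times their mean for Lyz2, 1.63 times for Napsa, 3.50 times for Chi3l1 and 3.56 times for Cd177. The primary granule genes were higher in it as well, by 1.30 times for Mpo, 1.69 times for Elane, 1.48 times for Prtn3 and 1.43 times for Ctsg. With 1 mutant sibling, these ratios have no replicate check.

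Both groups of genes overlapped between Kat6b E/E and WT. The mean in Kat6b E/E over that in WT was 0.922 for Lyz2, 0.955 for Napsa, 1.11 for Chi3l1 and 0.623 for Cd177, and 0.918 to 1.17 for the 4 primary granule genes. None of the 8 genes was without overlap between them, against 2.2% of all tested genes higher and 1.73% lower. The linear model (limma) called 0 of the 8 genes and 0% of all tested genes, although 364 of 13071 passed 0.05 before adjustment. By edgeR, with or without surrogate variables, and by DESeq2 the number of genes was likewise 0. Without the 4 libraries with few detected genes, 1 of the 8 was called, Mpo, with a log2 fold change of -0.35, and 0.444% of all tested genes were called. Compared with Kat6b E/E, the 4 later genes and none of the primary granule genes were higher without overlap in Kat6a E/E, against 5.26% of all tested genes. For Cd177 the groups nearly touched, with a lowest value of 1.361 CPM in Kat6a E/E and a highest of 1.355 CPM in Kat6b E/E. The model called these 4 genes and 2.07% of all tested genes. It gave log2 fold changes of 0.79 (SE 0.092) for Lyz2, 0.63 (SE 0.11) for Napsa, 1.60 (SE 0.35) for Chi3l1 and 2.53 (SE 0.60) for Cd177.

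In the double mutants Lyz2, Chi3l1 and Cd177 had higher means than in Kat6a E/E, and the 3 highest libraries for each came from 1 litter. The mean over that in WT was 2.56 for Lyz2, 15.1 for Chi3l1, 8.19 for Cd177 and 1.35 for Napsa. In double mutant replicate 1 alone, the only double mutant with the usual number of detected genes, the level over the WT mean was 1.15 for Lyz2, 1.48 for Chi3l1, 1.83 for Cd177 and 1.52 for Napsa. Lyz2, Chi3l1 and Napsa were higher than WT without overlap, against 1.53% of all tested genes, and all 4 were higher than Kat6b E/E without overlap, against 2.23%. In litter 970, double mutant replicate 1 had 1.41 times the Lyz2, 1.63 times the Napsa, 1.47 times the Chi3l1 and 2.88 times the Cd177 of its Kat6b E/E sibling. For the primary granule genes the ratio in this litter was 1.09 for Mpo, 1.34 for Elane, 1.28 for Prtn3 and 1.19 for Ctsg.

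The model gave log2 fold changes in the double mutants against WT of 0.41 (SE 0.12) for Lyz2, 1.17 (SE 0.47) for Chi3l1, 1.73 (SE 0.67) for Cd177 and 0.56 (SE 0.13) for Napsa. The primary granule genes had values from -0.38 (SE 0.38, Ctsg) to -0.17 (SE 0.47, Elane). These values rest mainly on double mutant replicate 1 (litter 970), which carries 79.9% of the weight of its genotype in the model with surrogate variables. In this comparison limma called 0 of the 8 genes and 0% of all tested genes, with 896 of 13071 under 0.05 before adjustment. The number over all genes was 1 by edgeR with surrogate variables, 39 by edgeR without them, and 80 by DESeq2. Without double mutant replicate 1 all 8 genes were called, in a fit that called 16.4% of all tested genes, and without double mutant replicate 2 the number was 1, against 0.128%. Without replicate 1, when the genotype is litter 1045 alone, Lyz2 had a log2 fold change of 1.39 and Mpo one of -0.68. Without surrogate variables, edgeR gave 1.36 for Lyz2 and 3.89 for Chi3l1, near the ratios of the means.

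Against Kat6a E/E, the double mutants showed no later gene without overlap, while 1.55% of all tested genes were higher without overlap. Without double mutant replicate 1 the number was 3, against 8.91%. The mean over that in Kat6a E/E was 1.86 for Lyz2, 6.67 for Chi3l1, 2.95 for Cd177 and 0.927 for Napsa. In double mutant replicate 1 against the 3 Kat6a E/E libraries with the usual number of detected genes, these ratios turned to 0.802, 0.595, 0.686 and 0.980. The linear model of all 16 libraries gave log2 fold changes of -0.13 (SE 0.12) for Lyz2, -0.29 (SE 0.44) for Chi3l1, -0.14 (SE 0.60) for Cd177 and -0.045 (SE 0.13) for Napsa, so that its sign for Lyz2, Chi3l1 and Cd177 was opposite to that of the ratios of the means. Here limma called 0 of the 8 genes and 0% of all tested genes, 197 of which were under 0.05 before adjustment, and edgeR and DESeq2 called 0. Without double mutant replicate 1 the model called 7 of the 8 genes and 15.1% of all tested genes. Against Kat6b E/E, the model called 2 of the 8 genes, Lyz2 (0.66, SE 0.10) and Napsa (0.58, SE 0.12), and 1.48% of all tested genes. The interaction of both alleles was called for 0 genes by limma, with 652 under 0.05 before adjustment.

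**Figure D2:**
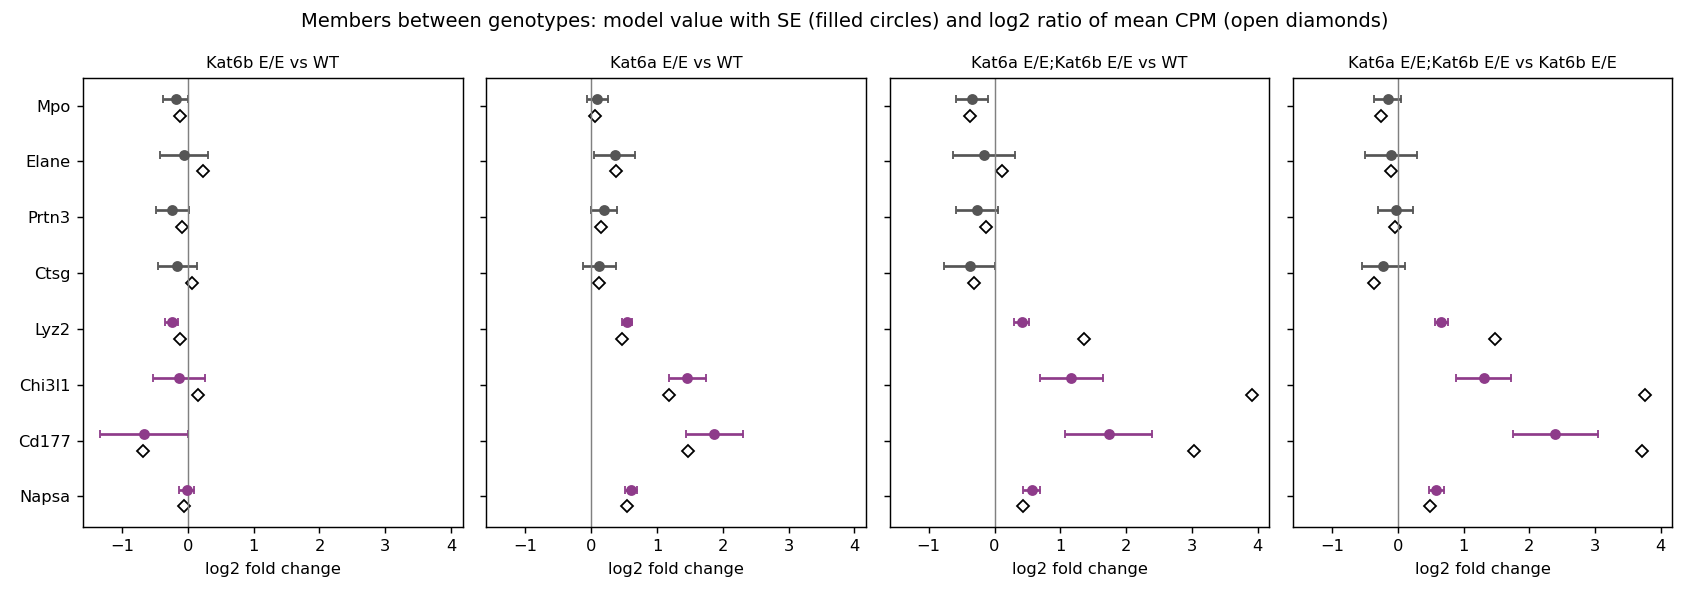
Log2 fold change (x axis) of the 8 genes (y axis) in 4 comparisons of E14.5 LSK libraries. Filled circles with bars are the values of the linear model with their SE, grey for primary granule and purple for later genes, and open diamonds are the log2 ratios of the mean CPM. In both comparisons of the double mutants, the ratios of the means for Lyz2, Chi3l1 and Cd177 lie well above the model values.

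Within genotypes, the primary granule genes varied together, and Lyz2, Chi3l1 and Cd177 varied apart from Napsa. After removal of genotype means, Pearson correlations of log2 CPM over the 16 libraries lay between 0.808 and 0.906 for the 6 pairs of primary granule genes. For the 16 pairs of a primary and a later gene they lay between -0.358 and 0.623, with a median of 0.058. The highest values among these were those of Napsa with Mpo (0.623), Prtn3 (0.448) and Ctsg (0.367). Lyz2 and Chi3l1 had the closest relation among the later genes, with a correlation of 0.904, while Napsa was negatively related to Lyz2 (-0.221), Chi3l1 (-0.285) and Cd177 (-0.465). With genotype means kept, Napsa was positively related to the same genes, at 0.508, 0.440 and 0.532. Among the double mutants, replicate 1 had the highest Napsa and the lowest Lyz2, Chi3l1 and Cd177, and its part in the negative values was not tested. The points share libraries and the sort, so these correlations are descriptions. The summed level of the 4 primary granule genes was 3295 to 4681 CPM in the double mutants and 3873 to 6769 CPM in the other 12 libraries. The summed level of the 4 later genes was 411 to 603 CPM in the litter 1045 libraries, 220 to 287 CPM in Kat6a E/E and double mutant replicate 1, and 152 to 192 CPM in WT and Kat6b E/E.

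**Figure D3:**
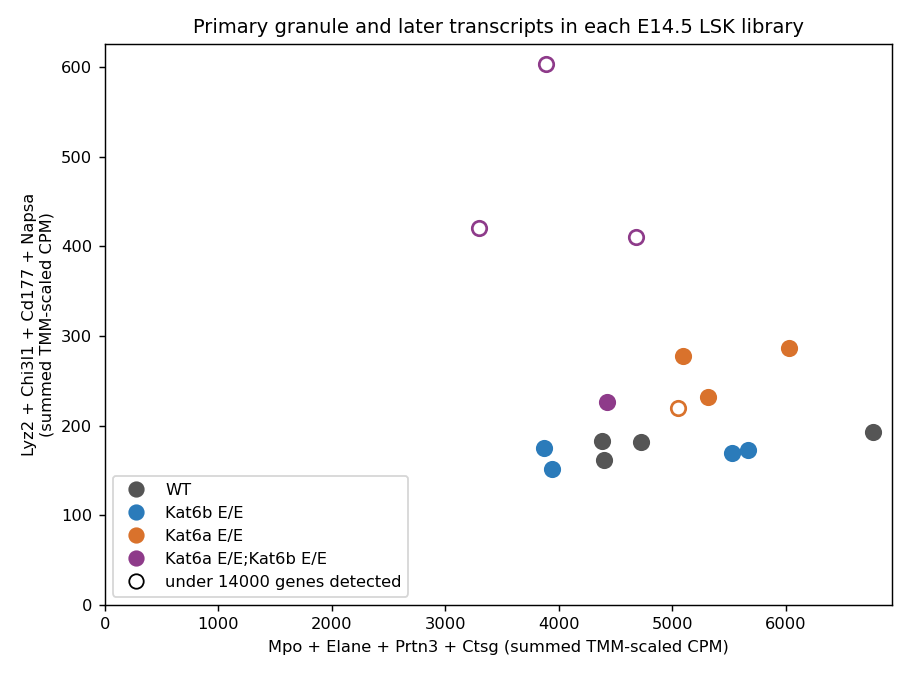
Summed TMM-scaled CPM of Mpo, Elane, Prtn3 and Ctsg (x axis) against that of Lyz2, Chi3l1, Cd177 and Napsa (y axis) in each E14.5 LSK library, both axes linear from 0. Colours mark the genotype and open circles the 4 libraries with under 14000 genes detected. WT and Kat6b E/E lie in a flat band of 152 to 192 CPM on the y axis, Kat6a E/E and double mutant replicate 1 lie above it at 220 to 287 CPM, and the 3 double mutants of litter 1045 lie at 411 to 603 CPM.

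The genes most similar to each of the 8 were sought among the 13071 tested, by correlation over the 16 libraries. For Mpo they were Calr (r = 0.892), a chaperone of the endoplasmic reticulum, Tfec (r = 0.889) and Ctsg (r = 0.887). For Elane they were Ms4a3 (r = 0.937), a marker of granulocyte-macrophage progenitors, Hk3 (r = 0.914) and Nucb2 (r = 0.897). For Prtn3 they were Anxa3 (r = 0.919), Alas1 (r = 0.892), the rate-limiting enzyme of haem synthesis, and Slc49a4 (r = 0.878). Alas1 was also the nearest gene of Ctsg (r = 0.947), followed by Mpo (r = 0.887) and Calr (r = 0.884). The nearest genes of the later members were of another kind.

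Lyz2 was nearest to Chi3l1 (r = 0.962), Cybb (r = 0.949), the catalytic subunit of the phagocyte oxidase, and Cd300lf (r = 0.939). Chi3l1 was nearest to Stfa3 (r = 0.974), Lyz2 (r = 0.962) and Camp (r = 0.952), the cathelicidin of specific granules. Cd177 was nearest to Lcn2 (r = 0.937), another specific granule protein, Stfa2l1 (r = 0.937) and Ifitm6 (r = 0.933). These 3 orders are led by the litter 1045 libraries. Napsa was nearest to Pld4 (r = 0.898), Rogdi (r = 0.894) and Irf5 (r = 0.871). After removal of genotype means, the nearest gene was B4galnt1 for Mpo (r = 0.926), Ly6c2 for Elane (r = 0.956), Anxa3 for Prtn3 (r = 0.944) and Alas1 for Ctsg (r = 0.941). It was Clec4a1 for Lyz2 (r = 0.926), Stfa3 for Chi3l1 (r = 0.937), Stfa2l1 for Cd177 (r = 0.884) and Adss1 for Napsa (r = 0.896). The next 2 places were then held by Rab44 and Alas1 for Mpo, Nucb2 and Ms4a3 for Elane, Tmed3 and Rab44 for Prtn3, Clcn7 and Srrt for Ctsg, Chi3l1 and Nr5a2 for Lyz2, Meis2 and Ptcd2 for Chi3l1, Ngp and Ifi207 for Cd177, and Kcnip3 and Fam3a for Napsa.

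The summed level of a list of neutrophil markers was highest in the litter 1045 libraries, as were Lyz2, Chi3l1 and Cd177. The list includes genes of specific granules, such as Ngp, Camp and Ltf, and not all of it followed this order. Cxcr2, at 8.39 to 28.0 CPM over the 16 libraries, was not above the other 13 in all 3 of them, whereas Retnlg, at most 7.84 CPM, was. The summed level of 10 neutrophil markers, S100a8, S100a9, Ngp, Camp and Ltf among them, was 200 to 529 CPM in WT, 216 to 430 CPM in Kat6b E/E, 281 to 647 CPM in Kat6a E/E and 394 CPM in double mutant replicate 1. It was 1302 to 2146 CPM in the litter 1045 libraries. The ranges of WT, Kat6b E/E and Kat6a E/E overlapped. Ly6g, which marks mature neutrophils and whose protein was a target of the lineage depletion, was at 0 in 7 of the 16 libraries and at most 2.95 CPM. The summed level of 10 macrophage and monocyte markers was 207 to 263 CPM in WT, 170 to 268 CPM in Kat6b E/E, 218 to 304 CPM in Kat6a E/E and 234 to 319 CPM in the double mutants, so these ranges overlapped. The members of this list went in different directions. In Kat6a E/E against WT, Csf1r (0.41, limma FDR = 0.0174), the receptor for macrophage colony-stimulating factor, and Ccr2 (0.50, limma FDR = 0.0216), a chemokine receptor of monocytes, rose. C1qa, C1qb, C1qc, Marco and Timd4, genes of resident macrophages, had log2 fold changes of -0.87 to -0.69 and did not pass the test. Vsig4, another marker of resident macrophages, was at 0 in 11 of the 16 libraries, while the other 9 markers were detected in all 16. Marco was at 5.35 to 32.7 CPM, Adgre1 at 7.28 to 27.4 CPM, C1qb at 3.90 to 22.2 CPM and Timd4 at 1.03 to 10.7 CPM.

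Markers of other lineages also differed along with the later genes. Together, 6 lymphoid markers had a summed level of 75.2 to 129 CPM in WT, 82.7 to 97.5 CPM in Kat6b E/E, 27.3 to 53.0 CPM in Kat6a E/E and 9.20 to 53.7 CPM in the double mutants, so that the libraries with the G656E allele were below the others. Over the 16 libraries it had correlations of -0.81 with Lyz2, -0.88 with Chi3l1 and -0.87 with Cd177. After removal of genotype means these were weaker, at -0.40, -0.66 and -0.60. Of this list, Cd3e was at 0 in all 16 libraries and Dntt in 15. For 5 mast cell and basophil markers the sum was 143 to 157 CPM in WT, 126 to 153 CPM in Kat6b E/E, 88.1 to 105 CPM in Kat6a E/E and 102 to 124 CPM in the double mutants. Its correlation with Napsa was -0.81, and only -0.12 after removal of genotype means. For 5 markers of granulocyte-macrophage progenitors the sum was 349 to 458 CPM in WT, 304 to 412 CPM in Kat6b E/E, 385 to 498 CPM in Kat6a E/E and 303 to 423 CPM in the double mutants. This sum had a correlation of 0.68 with Napsa, and of 0.76 after removal of genotype means. For Mpo, Prtn3, Ctsg and Elane the latter was 0.92, 0.85, 0.72 and 0.64. These correlations are descriptions over libraries that share the sort. The part of any of these cells in the levels of the 8 genes was not tested.

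Other granule and lysosome genes were examined as 3 lists with 94 genes, of which 89 were tested. In Kat6a E/E against WT, 3 of the 89 rose and 1 fell (limma, FDR under 5%), and 1.36% of all tested genes were called. The median log2 fold change was 0.096, against -0.012 for all genes. The genes that rose were Padi4 (1.08, FDR = 0.0150), which citrullinates histones in neutrophils, Itgb2 (0.34, FDR = 0.0267), the common chain of leukocyte integrins, and Ctsz (0.34, FDR = 0.0356), a lysosomal carboxypeptidase. The gene that fell was Ctsl (-0.45, FDR = 0.0316), the lysosomal protease cathepsin L. This count of 4 was 0 without Kat6a E/E replicate 1, against 0.00756% of all tested genes, and 8 without Kat6a E/E replicate 2, against 1.49%. It was 2 without Kat6a E/E replicate 4 or WT replicate 1, against 0.325% and 1.02%. It was 1 without WT replicate 2 or WT replicate 4, against 0.189% and 0.666%. In the double mutants against WT 0 of the 89 and 0% of all tested genes were called by limma. Without double mutant replicate 1, 25 were called, in a fit that called 16.4% of all tested genes. Since these lists were made with earlier results known, the counts only describe them.

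Specific and gelatinase granules form after the primary granules. The list made for them also held other neutrophil genes, such as Padi4, Cxcr2, S100a8 and S100a9, so its counts do not describe these granules alone. Of its 20 genes tested, 17 had a log2 fold change above 0 in Kat6a E/E against WT, with a median of 0.38. Of all genes, 45.9% were above 0. Itgb2 and Padi4 were the 2 genes that passed the test. The calprotectin genes S100a9 and S100a8, the most abundant of the list, did not pass. S100a9 was at 83.3 to 234 CPM in WT and 106 to 289 CPM in Kat6a E/E, and S100a8 was at 78.6 to 227 CPM in WT and 105 to 230 CPM in Kat6a E/E. In the double mutants against WT, 15 of 20 were above 0 with a median of 0.38, against -0.027 for all genes, and 0 passed. The share of all genes above 0 is not given for this comparison. Its model values rest mainly on double mutant replicate 1, with 79.9% of the weight of its genotype. In the litter 1045 libraries, 12 of the 20 were above all other 13 libraries, as were 3 of the 4 later members and none of the primary granule genes, and 3.4% of all tested genes. Ltf, the iron-binding lactoferrin, was at 127 to 244 CPM in them and at 5.70 to 47.7 CPM in the other 13. Camp was at 98.5 to 171 CPM and Ngp, another specific granule protein, at 155 to 272 CPM in these 3 libraries. Ltf, Camp and Ngp were picked as examples after their values were seen.

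**Figure D4:**
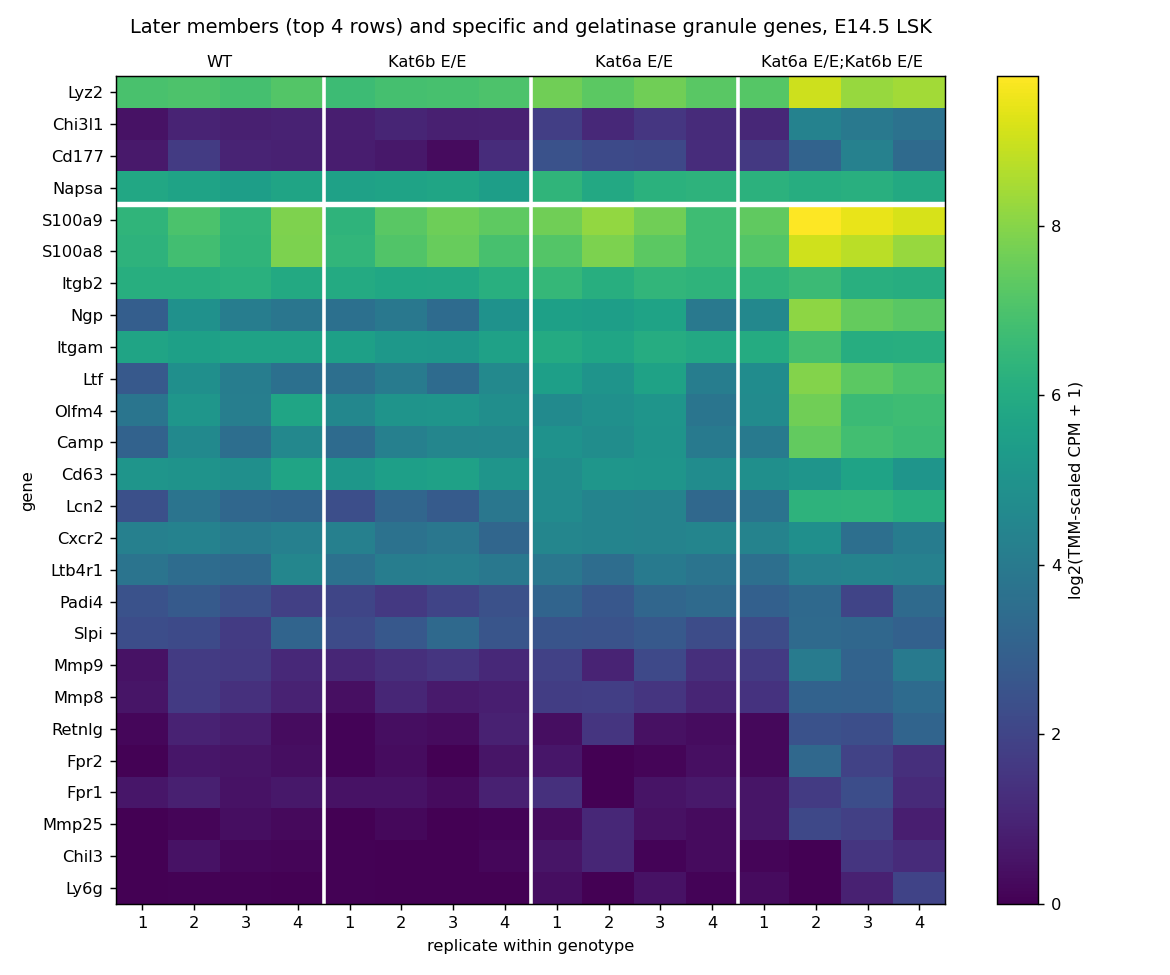
Level of the 4 later genes (upper 4 rows) and of the genes on the list for specific and gelatinase granules (lower rows, ordered by mean level) in the 16 E14.5 LSK libraries, as log2(CPM + 1) by colour. Columns are the replicates of each genotype. The 3 double mutants of litter 1045 (replicates 2, 3 and 4) have the highest values for 12 of the genes on this list and for Lyz2, Chi3l1 and Cd177, but not for Napsa.

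A further list held genes for the processing and packing of the primary granule proteases and genes of the promyelocyte stage. Of 15 tested, 13 had a log2 fold change above 0 and 0 passed the test in Kat6a E/E against WT, with a median log2 fold change of 0.16, near the median of 0.16 of the 4 primary granule genes. The 3 most abundant were Calr, Canx and Plac8. Calr and Canx are chaperones of the endoplasmic reticulum. Calr was at 1437 to 1762 CPM in WT and 1520 to 1675 CPM in Kat6a E/E, and Canx at 671 to 797 CPM in WT and 696 to 776 CPM in Kat6a E/E. Plac8 was at 337 to 408 CPM in WT and 365 to 479 CPM in Kat6a E/E. Of 54 lysosome genes tested, 1 rose (Ctsz) and 1 fell (Ctsl), with a median of 0.051.

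The last lists concerned the phagocyte oxidase and myeloid transcription factors. Both Cybb (0.54, FDR = 0.0216) and Ncf1 (0.33, FDR = 0.0156), of 6 oxidase genes, rose in Kat6a E/E against WT, and all 6 had values above 0. Cybb was at 21.0 to 31.7 CPM in WT, 32.5 to 43.4 CPM in Kat6a E/E and 35.3 CPM in double mutant replicate 1. Of 12 transcription factors, Irf8 (0.45, FDR = 0.0299), which directs monocyte development, rose, and Gata2 (-0.57, FDR = 0.00353), a factor of stem, mast and megakaryocyte cells, fell. The median of the 12 was 0.0099. Irf8 was at 94.3 to 114 CPM in WT and 76.6 to 158 CPM in Kat6a E/E, the lowest value being that of replicate 2. Gata2 was at 99.0 to 114 CPM in WT and 56.0 to 82.3 CPM in Kat6a E/E, without overlap. Spi1, which encodes PU.1 and did not pass, was at 160 to 204 CPM in WT and 152 to 215 CPM in Kat6a E/E, and it was picked after its values were seen. In the double mutants against WT, 0 of the 12 and 0 of the 6 genes were called by limma.

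The E9.5 embryos are independent of the libraries in which the 8 genes were picked. At this stage, before definitive haematopoiesis in the liver, the 8 genes were close to absent from whole embryos. Over all 24 embryos Ctsg had 0 read pairs, Elane 4, Cd177 20, Chi3l1 129, Napsa 135, Lyz2 217, Mpo 365 and Prtn3 433. The highest level in any embryo was 2.82 CPM, for Prtn3. Mpo, Prtn3 and Lyz2 had enough counts to be tested, and the other 5 did not pass the filter on low counts.

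None of the 3 genes was called in any of the 5 comparisons of mutant embryos with WT by limma, and none in any of the alternatives run for Kat6a cfd/cfd and for the double mutants. The comparisons share the 4 WT embryos. In Kat6a cfd/cfd against WT, which called 2.64% of all tested genes, Lyz2 was at 0.989 ± 0.292 CPM against 0.511 ± 0.417 CPM in WT (SD, n = 4 each), with a log2 fold change of 1.01 (limma, SE 0.42, FDR = 0.209). Mpo was at 1.41 ± 0.521 against 0.945 ± 0.294 CPM and Prtn3 at 1.25 ± 0.310 against 1.08 ± 0.542 CPM. In Kat6a E/E embryos, where 0.275% of all tested genes were called, Lyz2 was at 0.643 ± 0.285 CPM, and its log2 fold change against WT was 0.25 (limma, SE 0.42, FDR = 0.899). In the double mutant embryos, where 2.91% were called, Lyz2 was at 0.461 to 0.810 CPM with a mean of 0.619 CPM (n = 4), and its log2 fold change was 0.70 (limma, SE 0.43, FDR = 0.401). The 95% interval of the Kat6a E/E value, -0.62 to 1.11, holds the value of 0.54 seen for Lyz2 in LSK cells, so that with 1 to 24 read pairs of Lyz2 per embryo such a difference was not detectable at this depth. In Kat6b dec/dec embryos, where 0.508% of all tested genes were called, Lyz2 had a log2 fold change of -0.37 (limma, SE 0.46), and in Kat6b E/E embryos, where 0% were called and 626 were under 0.05 before adjustment, one of -0.071 (limma, SE 0.45). Kat6a was at 160 to 171 CPM in Kat6a cfd/cfd embryos and 169 to 186 CPM in WT embryos, and Kat6b was at 52.0 to 58.3 CPM in Kat6b dec/dec embryos and 38.2 to 42.6 CPM in WT embryos, higher in the mutants without overlap. These counts cover all exons of each gene together, retained ones included, and they do not check the labels.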

How the data were processed

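RNA was sequenced from 16 LSK libraries, sorted from E14.5 fetal livers, and from 24 whole E9.5 embryos, 4 per genotype. The authors aligned read pairs to the mouse genome mm39 with Rsubread and deposited whole-number counts per gene made by featureCounts on the RefSeq annotation, with exonic lengths. The kit does not mark strand. LSK libraries held 12270376 to 59216547 counts and embryos 8401990 to 23339359. For each stage, protein-coding genes off the Y chromosome that passed filterByExpr were kept, 13071 for LSK cells and 14183 for embryos. TMM scaling (edgeR 4.0.16) and a limma 3.58.1 fit (voomLmFit, litter as random block, 4 surrogate variables, robust moderation) of all genotypes of a stage followed, after the methods of the study, with Benjamini-Hochberg FDR under 0.05. Alternatives used edgeR's quasi-likelihood test and DESeq2 1.42.0. A fetus or embryo is the replicate. For correlations, log2 CPM had a prior count of 2. The fits were tested on simulated data. Promoters are RefSeq GRCm38.p6, motifs were searched on both strands, and gene positions are GENCODE vM39 on GRCm39.

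The members and lists were chosen with earlier results of these data known. Named were the 8 genes, Kat6a and Kat6b, of each list the genes under FDR 0.05 (at most 4 per direction) or else the 3 most abundant, and for each member the 3 nearest genes. Replicate numbers did not pair the libraries.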

Additional observations from a re-analysis of the deposited data

Results flagged for a closer look

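Of 32 groups of 4 LSK libraries examined (8 genes in 4 genotypes), 3 had a library far from the other 3. All were in the same library, WT replicate 4, which had 5120.44 CPM of Mpo, 412.004 CPM of Elane and 351.122 CPM of Ctsg, above the other WT libraries at 3487 to 3732, 150 to 178 and 195 to 221 CPM. Chance alone gives such a flag in about 1 in 20 groups. This library was the only WT library of litter 1111 and the deepest of the 16. It had the lowest summed level of LSK and stem cell markers in WT (1124 CPM), and the part of these differences in its levels was not tested.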

How the results depend on the processing

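Of 1080 alternative log2 fold changes of the 8 genes, 94 had the opposite sign, and 3 of these were called. All 3 were from the double mutants against Kat6a E/E without double mutant replicate 1, where Lyz2, Chi3l1 and Cd177 turned from -0.13, -0.29 and -0.14 to 0.84, 2.66 and 2.08, the highest values when 1 library was left out. The lowest were -0.17, -0.36 and -0.36. Without surrogate variables edgeR gave 0.89, 2.73 and 1.56 for this comparison with all libraries, and none was called. For Kat6a E/E against WT, 4 of the 8 genes were called. The number was 0 with 0 surrogate variables, with edgeR without surrogate variables and with only the 8 libraries compared, 1 with 2 surrogate variables, with the number of detected genes as a covariate and with a replicate block, and 2 with no litter block and without the 4 libraries with few detected genes. Over all 15 alternatives the number ranged from 0 to 5, so at the highest the called genes were not the later ones alone. It was 0 to 4 when 1 library was left out. For the other granule and lysosome genes, 4 were called. The number was 0 with 0 surrogate variables, edgeR without surrogate variables, the replicate block, only the 8 libraries compared or detected genes as a covariate, 1 with 2 surrogate variables or no litter block, 2 with edgeR and surrogate variables, 9 with 6 surrogate variables, 10 without the 4 libraries and 14 without litter 1045. It was 0 to 8 when 1 library was left out. Without the 4 libraries, 2.2% of all tested genes were called. The shares of all tested genes with 6 surrogate variables and without litter 1045 are not given here. The counts from those fits are therefore not read as a result about these genes.

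For Kat6b E/E against WT the number of the 8 genes was 0, and 1 without the 4 libraries. For the double mutants against WT it was 0, 2 with edgeR without surrogate variables, and 1 with DESeq2, without the 4 libraries or without litter 1045, and it was 0 to 8 when 1 library was left out. The other granule and lysosome genes gave 0 there, 1 with edgeR without surrogate variables or without the 4 libraries, and 0 to 25 when 1 library was left out. The 25 came without double mutant replicate 1, where 16.4% of all tested genes were called. Against Kat6a E/E the number of the 8 genes was 0 in all 14 alternatives and 0 to 7 when 1 library was left out. The fit of only the 8 libraries compared could not be made for the double mutants against either single mutant or for Kat6a E/E against Kat6b E/E. The cause of these changes was not tested. Leaving out the 4 libraries or litter 1045 and the detected-genes covariate were chosen after seeing the data. Same-numbered libraries had correlations of -0.43 to 0.35, and 6 of 16 were closest to their own number, so the replicate block is no pairing by design. Counts of 4 to 306 read pairs limit Chi3l1 and Cd177 in LSK cells, and embryo counts limit all 8 genes.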
